A study of Mus musculus
Mus spretus with 18 samples.

Results

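Allelic exon inclusion in the cerebral cortex was measured over 25042 skipped exon (SE) events, each an alternative exon with 1 pair of flanking exons. They lay on the 19 autosomes and were taken where both alleles reached 20 junction reads in both cortex libraries, which kept 78.3% of the 31998 autosomal events in the cortex table and compares with 81735 different events in the allelic tables of all 7 tissues. The events covered 22341 alternative exons in 8081 genes. The cortex came from female F1 hybrids at 8 weeks of age, born to C57BL/6J mothers (a common laboratory mouse strain) and SPRET/EiJ fathers (an inbred strain of the wild species Mus spretus). Both alleles of a library are thus from the same animal, and 2 animals were used. All mice came from 1 direction of the cross, so the strain of an allele and the parent it came from cannot be told apart. Heart, kidney, lung, spleen and liver of the same animals (liver from an earlier study) and 2 clones of F1 embryonic stem cells (ESC) serve only as comparisons here.

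A skipped exon is kept in some transcripts of a gene and spliced out of others, together with its flanking introns. Splice sites and the regulatory sequences around them lie on the same DNA molecule as the exon, whereas the splicing factors that read them are shared by both alleles of a cell. The brain is known for a rich use of alternative exons, among them the micro-exons of neuronal genes, which are very short and depend on dedicated splicing regulators.

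The percent spliced in (PSI, from 0 to 1) is the share of transcripts that hold the exon, from junction reads divided by the effective length of each form. ΔPSI is the difference in mean PSI, C57BL/6J minus SPRET/EiJ, and the standard deviation (SD) beside it is that of the ΔPSI of the 2 libraries. The C57BL/6J allele had 10362124 and 10671789 autosomal junction reads in the libraries, and the SPRET/EiJ allele 10129390 and 10453329, so that 50.6% and 50.5% of the allelic reads were C57BL/6J. An event had a median of 178 reads per allele and library, with quartiles of 84 and 392. All 8 neuronal markers examined were higher in cortex than in each of the other 6 tissues, with summed levels of 4635 and 5137 TPM (transcripts scaled to a fixed library total). The same held for 5 of 6 astrocyte and 5 of 5 oligodendrocyte markers, but for only 2 of 5 microglia and 0 of 4 endothelial markers. The 3 kidney markers summed to 0.267 and 0.180 TPM, the 3 blood markers to 87.5 and 130, and the choroid plexus marker set, almost all of it Ttr, to 1446 and 1244. Marker levels are from all reads of a library and were not split by allele.

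Most exons were spliced alike on both alleles, and a small set differed strongly. The median PSI was 0.987, and 77.8% of the events had a mean PSI above 0.9 on both alleles. The median |ΔPSI| over all events was 0.0116. Within an allele, the median difference between the libraries was 0.0103 for C57BL/6J and 0.00952 for SPRET/EiJ. ΔPSI is taken between means of 2 libraries and these values between single libraries, so they are not directly comparable. An allelic difference was called with a Benjamini-Hochberg adjusted p under 0.05 in a quasi-binomial model with limma-moderated dispersions, and with a |ΔPSI| of 0.1 or more. By this rule 503 events were called (2.01%), on 486 exons in 401 genes (4.96% of genes), with a median |ΔPSI| of 0.296. All 503 had the same sign in both libraries, and 479 reached 0.1 in each library. The call was made from these same libraries and favours events that agree, so this agreement is not separate evidence.

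Among the called events, 350 (69.6%) had a |ΔPSI| of at least 0.2, 97 (19.3%) of at least 0.5 and 39 (7.75%) of at least 0.7. Inclusion was higher on the C57BL/6J allele in 305 (1.22% of all events) and on the SPRET/EiJ allele in 198 (0.791%), a share of 60.6% for C57BL/6J (exact 95% interval 56.2 to 64.9, for counting error only). The adjusted p was under 0.05 at any size in 600 events, and an unadjusted p under 0.05 was found for 2871. Without the first or the second library of the C57BL/6J allele 149 and 107 events were called, and without that of the SPRET/EiJ allele 632 and 646. The scatter of both libraries shows the called events along the diagonal, away from the cloud around 0. This place in the plot follows from the rule of the call, which used the same values.

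**Figure D1:**
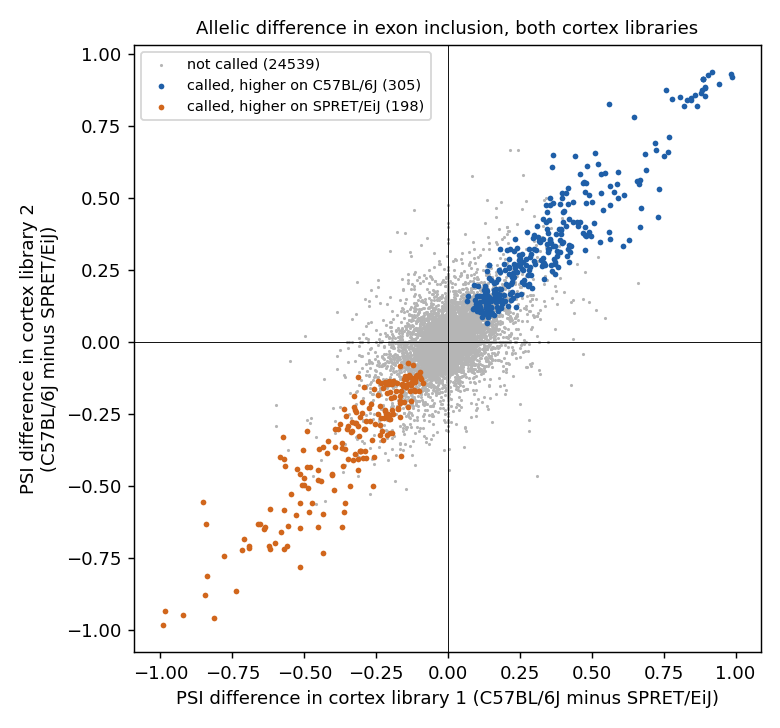
Each point is 1 of the 25042 events, with the PSI difference between alleles (C57BL/6J minus SPRET/EiJ) in cortex library 1 on the horizontal axis and in library 2 on the vertical axis, coloured by call. The 305 events called higher on C57BL/6J lie in the upper right and the 198 called higher on SPRET/EiJ in the lower left, while most grey points lie near 0 in both libraries.

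Events near the read minimum gave wider values. The 886 events whose thinnest allele and library had 20 to 24 reads had a median |ΔPSI| of 0.0467, and 33 of them were called (3.72%). The 1005 autosomal events just outside the minimum, with 15 to 19 reads, had a median of 0.0571. The PSI from all reads also holds reads that fit both genomes equally. It differed by 0.1 or less from the PSI of the pooled reads of both alleles in 97.3% of all events. This held for 450 (89.5%) of the called events. In the other 53 called events the allelic reads and all reads gave different inclusion levels, and the part this plays in ΔPSI was not tested.

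The largest differences came close to a full exchange of isoforms between alleles. In 11 events of 9 genes 1 allele had a PSI of at least 0.9 and the other of at most 0.1 in both libraries. The exon was kept on C57BL/6J in 8 of these events (Mtif2, Pkp4, Nrcam, Cdc26, 2 in Mrps17 and 2 in Meg3) and on SPRET/EiJ in 3 (Tor1aip1, Gpatch4 and Mcfd2). Meg3 is a special case, since its SPRET/EiJ allele had 977 and 961 reads over the gene, against 97180 and 89890 on C57BL/6J. Over all called events, 1 allele had a PSI above 0.95 in both libraries in 170 (33.8%), which was C57BL/6J in 89 and SPRET/EiJ in 81. A PSI under 0.05 in both libraries was found on 1 allele in 100 called events. This allele was SPRET/EiJ in 85 of them and C57BL/6J in 15.

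The 12 largest differences with higher inclusion on the C57BL/6J allele had a ΔPSI from 0.835 to 0.956. Positions are those of mm10 (GRCm38), counted from 1. Mtif2 encodes a mitochondrial translation initiation factor, and its exon at chr11:29526693-29526843 (151 bp) had a PSI of 1 and 0.929 on C57BL/6J and of 0.0159 and 0 on SPRET/EiJ. The alleles did not overlap, and ΔPSI was 0.956 ± 0.0393 (SD, n = 2, limma-moderated adjusted p = 0.000382), from 20 to 81 reads per allele and library. Pkp4 encodes a plakophilin of cell junctions. Its exon at chr2:59305066-59305197 (132 bp) had a PSI of 0.989 and 0.922 on C57BL/6J and of 0.000925 and 0.00114 on SPRET/EiJ, where 1 inclusion read stood against 540 and 440 skipping reads. ΔPSI was 0.954 ± 0.0472 (SD, n = 2, limma-moderated adjusted p = 2.73e-06). Mrps17 encodes a protein of the small mitochondrial ribosomal subunit. The exon at chr5:129715684-129715763 (80 bp) had a PSI of 0.919 and 0.939 on C57BL/6J and of 0.00166 and 0.00357 on SPRET/EiJ. With 281 to 448 reads, ΔPSI was 0.927 ± 0.0128 (SD, n = 2, limma-moderated adjusted p = 1.53e-06). This exon and 4 longer forms of it with the same start were all called, and since they share reads they are not separate findings.

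Zscan21 encodes a zinc finger transcription factor with a SCAN domain. Its exon at chr5:138117836-138117920 (85 bp) had a PSI of 1 in both libraries on C57BL/6J and of 0.0566 and 0.105 on SPRET/EiJ (ΔPSI 0.919 ± 0.0344, SD, n = 2, limma-moderated adjusted p = 0.000145). None of the 140 and 154 C57BL/6J reads skipped the exon, which allows up to 2.14% and 1.95% of skipping reads. Nrcam encodes a neuronal cell adhesion molecule. Its exon at chr12:44387900-44388055 (156 bp) had a PSI of 0.940 and 0.933 on C57BL/6J and of 0.0552 and 0.0584 on SPRET/EiJ, from 277 to 939 reads. The 2 libraries were nearly the same on each allele, and ΔPSI was 0.879 (limma-moderated adjusted p = 1.53e-06). Cdc26 encodes a subunit of the anaphase-promoting complex. Its exon at chr4:62404456-62404552 (97 bp) had a PSI of 0.928 and 0.918 on C57BL/6J and of 0.0494 and 0.0532 on SPRET/EiJ (ΔPSI 0.872, limma-moderated adjusted p = 1.83e-06).

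Meg3, a long noncoding RNA (lncRNA) made mainly from the maternal chromosome, stood apart by its read balance. Its 34-bp exon at chr12:109549519-109549552 had a PSI of 0.909 and 0.906 on C57BL/6J from 7921 and 7370 reads, but 0.0159 and 0.0226 on SPRET/EiJ from 220 and 217 reads (ΔPSI 0.888, limma-moderated adjusted p = 1.83e-06). The SPRET/EiJ value thus rests on the small number of reads from the weakly expressed allele. Inclusion reads were 7406 and 6873 on C57BL/6J against 5 and 7 on SPRET/EiJ, but skipping reads 515 and 497 against 215 and 210. Over the gene's 11 events the C57BL/6J share of reads lay between 69.0% and 99.97%. Why the junctions of Meg3 differ in allelic share was not tested. For the 144-bp exon of Tmem80, a transmembrane protein gene, ΔPSI was 0.874. The PSI from all reads was 0.398, a difference of −0.265 from that of the pooled reads of both alleles. C57BL/6J had 168 and 191 reads there and SPRET/EiJ 28 and 42. Trpc2, a transient receptor potential channel gene, had a PSI of 0.831 and 0.840 on C57BL/6J for its 95-bp exon. On SPRET/EiJ no inclusion read was found among 44 and 43 reads, which allows up to 6.82% and 6.98% of reads. The other exons among the 12 largest in this direction were in Pld3 (98 bp, ΔPSI 0.843), which encodes a lysosomal enzyme of the phospholipase D family, and in the lncRNA genes 2210408F21Rik (54 bp, 0.846) and 9430021M05Rik (216 bp, 0.843).

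Exons kept mostly by the SPRET/EiJ allele included the largest difference of all. Tor1aip1 encodes a torsin-binding protein of the inner nuclear membrane. Its exon at chr1:156019968-156020023 (56 bp) had a PSI of 0.00703 and 0 on C57BL/6J and of 1 and 0.980 on SPRET/EiJ, from at least 87 reads per allele and library. ΔPSI was −0.987 ± 0.00900 (SD, n = 2, limma-moderated adjusted p = 1.13e-05). Gpatch4 encodes a protein with the glycine-rich G-patch domain. Its exon at chr3:88043467-88043601 (135 bp) had a PSI of 0.0169 and 0.0654 on C57BL/6J and of 1 in both libraries on SPRET/EiJ (ΔPSI −0.959, limma-moderated adjusted p = 0.00214). The SPRET/EiJ allele had only 26 and 24 reads there, so up to 11.5% and 12.5% of skipping reads could have been missed. Mcfd2 encodes a cofactor for cargo transport from the endoplasmic reticulum. Its exon at chr17:87258750-87258881 (132 bp) had a PSI of 0.0795 and 0.0490 on C57BL/6J and of 1 and 0.996 on SPRET/EiJ, from 95 to 457 reads (ΔPSI −0.934, limma-moderated adjusted p = 4.16e-06).

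Atg7 encodes the enzyme that activates ubiquitin-like proteins in autophagy. Its 53-bp exon at chr6:114672791-114672843 had a PSI of 0 and 0.0287 on C57BL/6J and of 0.845 and 0.905 on SPRET/EiJ (ΔPSI −0.861, limma-moderated adjusted p = 0.000237). The remaining exons of this direction had a ΔPSI between −0.884 and −0.703 and were found in Fam227a, Rcbtb1, Alg6, which encodes a glucosyltransferase of N-glycosylation, Cox19, a cytochrome c oxidase assembly factor gene, Ccdc74a, Fbxo41, Carf and Tcof1, whose product acts in ribosomal RNA synthesis. Their libraries differed in precision. Fbxo41 had a PSI of 0.284 and 0.260 on C57BL/6J against 1 and 0.982 on SPRET/EiJ (SD of ΔPSI 0.00345), whereas Carf had 0.0870 and 0.333 against 0.940 and 0.889 (SD 0.210), with 25 and 24 reads on C57BL/6J. The Ccdc74a exon was called in 1 of its 2 events. Of the 24 exons with the largest differences, 9 had a length divisible by 3, against 9494 of all 22341 exons, and this was not tested.

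**Figure D2:**
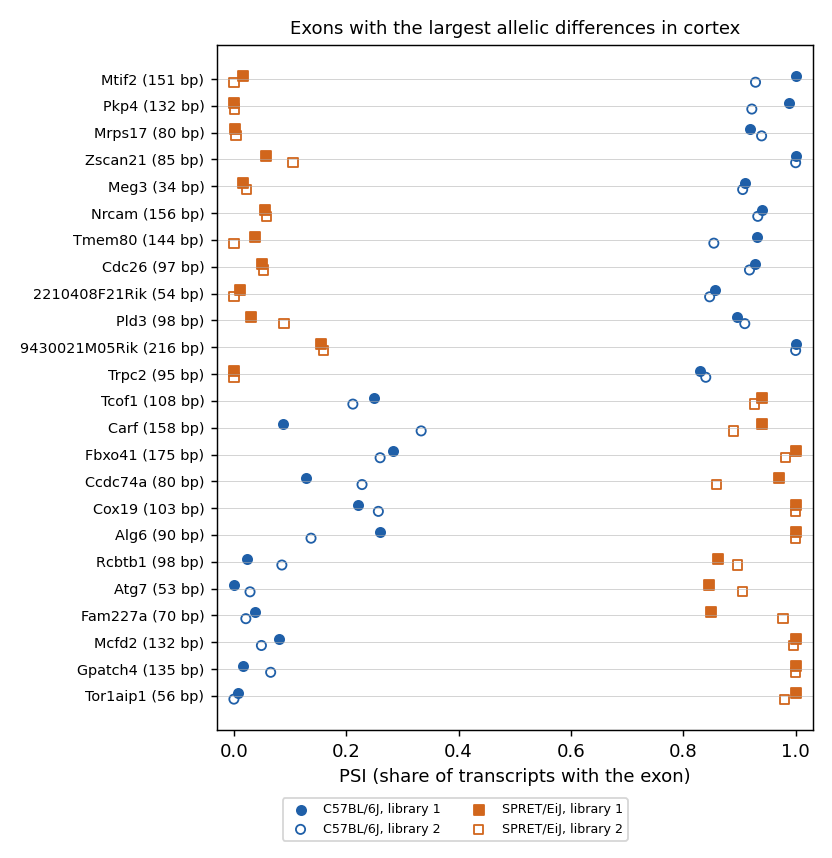
PSI of the 24 exons with the largest allelic differences, 12 in each direction and 1 per gene, on each allele (C57BL/6J circles, SPRET/EiJ squares) in both cortex libraries (library 1 filled, library 2 open). In all 24 genes the 2 alleles are far apart compared with the libraries, for which the exons were chosen from these same values. The widest gaps between libraries are those of Carf (0.0870 and 0.333 on C57BL/6J) and Fam227a (0.850 and 0.978 on SPRET/EiJ).

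Micro-exons, here exons of 30 bp or less, were called about as often as longer exons. Of 562 such events 15 were called (2.67%, exact 95% interval 1.501 to 4.364), with higher inclusion on C57BL/6J in 9 and on SPRET/EiJ in 6. The classes of longer exons gave 1.93% to 2.27%. Micro-exons were more often of intermediate inclusion: among events with a mean PSI of 0.1 to 0.9, 13 of 244 were called (5.33%, exact interval 2.87 to 8.94), against 403 of 3117 longer exons (12.9%, 11.8 to 14.2). These intervals cover counting error over events, which are not replicates, and the difference between the classes was not tested over samples.

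The 8 micro-exons with the largest differences had a |ΔPSI| of at least 0.237. Limk2 encodes a LIM kinase that acts on the actin regulator cofilin. Its 18-bp exon had a PSI of 0.444 and 0.442 on C57BL/6J and of 0.0961 and 0.121 on SPRET/EiJ (ΔPSI 0.335, limma-moderated adjusted p = 0.00222). In the 5 other tissues with enough reads its mean PSI was at most 0.0609 on either allele. Cyld encodes a deubiquitinase, and its 9-bp exon had a PSI of 0.817 and 0.812 on C57BL/6J and of 0.537 and 0.611 on SPRET/EiJ (ΔPSI 0.240, limma-moderated adjusted p = 0.00395). In heart, kidney and lung it was almost unused on both alleles, with a mean PSI of at most 0.0218. Zmynd8, a chromatin reader gene, had a PSI of 0.656 and 0.538 against 0.367 and 0.304 for a 12-bp exon (ΔPSI 0.262, limma-moderated adjusted p = 0.0210), and at most 0.157 on either allele elsewhere. The test between tissues compares the alleles by the log odds of inclusion reads and not by ΔPSI. For these 3 exons it gave no call against heart or kidney (limma-moderated interaction adjusted p from 0.943 to 1). It does not say whether their ΔPSI differed between tissues, so the values stand side by side only. In Pdlim7, a PDZ and LIM domain gene, a 17-bp exon had a PSI of 0.852 and 0.776 against 0.464 and 0.465 in cortex (ΔPSI 0.350, limma-moderated adjusted p = 0.00538). It was called in 1 of its 2 events. In heart the mean was 0.394 against 0.519, which was not called (limma-moderated adjusted p = 0.679). The difference between cortex and heart was not called either (limma-moderated interaction adjusted p = 0.145).

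Higher inclusion on SPRET/EiJ was seen in the 27-bp exon of Ahi1, a gene of the primary cilium, with a PSI of 0.712 and 0.649 against 0.926 and 0.909 (ΔPSI −0.237, limma-moderated adjusted p = 0.00227). The 21-bp exon of Wdr17 had 0.165 and 0.141 against 0.608 and 0.624 (−0.463, adjusted p = 0.00143). Of the 21-bp exon of Ddhd1, a phospholipase gene, 0.521 and 0.568 was kept on C57BL/6J, and none of the 24 and 25 SPRET/EiJ reads skipped it (−0.456, adjusted p = 0.0324). The Ddhd1 exon was called in 1 of its 2 events. Hnrnpc encodes a nuclear RNA-binding protein that itself takes part in splicing. Its 26-bp exon had a PSI of 0.251 and 0.2 on C57BL/6J and of 0.871 and 0.918 on SPRET/EiJ (−0.669, adjusted p = 0.00226). Here only 30 and 32 SPRET/EiJ reads were found against 123 and 128 on C57BL/6J. The PSI from all reads was 0.861, or 0.522 above that of the pooled reads of both alleles. Among the 47 exons selected by size, length or gene list, the pooled PSI of 40 lay within 0.1 of that from all reads. The 7 others were in Tmem80, Dlg4, Rims1, Add1, Cadps2, Ank2 and Hnrnpc.

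The gene lists were described by their counts and were not tested against each other. In the cytoskeleton and axonal transport list 12 of 349 events were called (3.44%, against 2.01% of all events), in 9 of 49 genes (18.4%, against 4.96% of all genes), and the list's median |ΔPSI| was 0.00938 (all events 0.0116). Mapt encodes tau, which binds axonal microtubules. Its 87-bp exon at chr11:104289908-104289994 had a PSI of 0.587 and 0.519 on C57BL/6J and of 0.190 and 0.177 on SPRET/EiJ, from 385 to 523 reads. ΔPSI was 0.370 ± 0.0390 (SD, n = 2, limma-moderated adjusted p = 0.000242), and the exon was called in 1 of its 2 events. A neighbouring exon of the same gene at chr11:104287123-104287209 went the other way, with a ΔPSI of −0.151 (limma-moderated adjusted p = 0.000382). Ank2 encodes a brain and heart ankyrin that anchors membrane proteins. Its 99-bp exon at chr3:127012673-127012771 had a PSI of 0.486 and 0.508 on C57BL/6J and of 0.903 and 0.853 on SPRET/EiJ (ΔPSI −0.381, limma-moderated adjusted p = 0.000759). Kif1a encodes a kinesin that carries synaptic vesicle precursors along axons. Its 27-bp exon had a PSI of 0.621 and 0.561 against 0.405 and 0.396, from 1896 to 2264 reads (ΔPSI 0.190, limma-moderated adjusted p = 0.00225). For the 50-bp exon of Add1, which encodes an adducin of the spectrin skeleton, ΔPSI was −0.229, called in 1 of its 2 events.

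In the endocytosis and membrane trafficking list 10 of 271 events were called (3.69%, against 2.01% of all events). They lay in only 3 of 43 genes (6.98%, against 4.96% of all genes): Mff with 6 events, Synj1 with 3 and Tbc1d24 with 1. Mff encodes the receptor for the fission machinery on mitochondria. Its 75-bp exon had a PSI of 0.0581 and 0.0291 on C57BL/6J and of 0.224 and 0.234 on SPRET/EiJ (ΔPSI −0.186, limma-moderated adjusted p = 0.00149). Synj1 encodes a phosphatase that uncoats synaptic vesicles, and its 39-bp exon had 0.802 and 0.740 against 0.935 and 0.910 (−0.152, adjusted p = 0.0367). Tbc1d24 kept a 110-bp exon in almost all C57BL/6J transcripts (0.992 and 1) and in fewer SPRET/EiJ transcripts (0.695 and 0.677). The limma-moderated adjusted p was 0.00134. This exon was called in 1 of its 3 events, and that of Synj1 in 2 of 3.

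Of the glia and myelin list, 6 of 94 events were called (6.38%, against 2.01% of all events). They lay in 3 of 22 genes (13.6%, against 4.96% of all genes). Mag encodes a myelin-associated glycoprotein on the inner face of the sheath. Its 45-bp exon had a PSI of 0.691 and 0.692 on C57BL/6J and of 0.533 and 0.487 on SPRET/EiJ, from 1403 to 1752 reads (ΔPSI 0.182, limma-moderated adjusted p = 0.00290). Bcas1, a marker of oligodendrocytes that begin to make myelin, accounted for 4 of the 6 events, and its 42-bp exon had 0.436 and 0.365 against 0.766 and 0.772 (−0.369, adjusted p = 0.00154). The 42-bp exon of Bcas1 was called in 1 of its 3 events. Enpp2 encodes autotaxin, an enzyme that makes lysophosphatidic acid and is secreted by oligodendrocytes and the choroid plexus. Its 75-bp exon had 0.161 and 0.1499 against 0.0204 and 0.0217 (0.134, adjusted p = 0.000140). The choroid plexus markers summed to 1446 and 1244 TPM in these libraries, and which cells gave the Enpp2 reads was not tested.

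In the synaptic lists the shares of events called were 0.943% and 1.6%, against 2.01% of all events, while 5.56% and 6.12% of their genes had a call, against 4.96% of all genes. Among presynaptic vesicle and active zone genes it was 2 of 212 events in 2 of 36 genes, in Cadps2 (120 bp, ΔPSI −0.302) and Rims1 (183 bp, 0.199), both regulators of vesicle release. Among postsynaptic scaffolds and receptors it was 4 of 250 in 3 of 49 genes, all with higher inclusion on C57BL/6J. Dlgap1, a scaffold of the postsynaptic density, had a PSI of 0.283 and 0.302 against 0.0335 and 0.0117 for a 109-bp exon, from 434 to 546 reads (ΔPSI 0.270, limma-moderated adjusted p = 0.000169). Dlg4, the gene of PSD-95, had a ΔPSI of 0.210 for a 165-bp exon (adjusted p = 0.0372). The Rims1 exon was called in 1 of its 3 events. None of 200 ion channel events was called by the limma-moderated test, and 8 had an unadjusted p under 0.05. Of 227 events in splicing regulators 1 was called (0.441%), in Hnrnpc, and 20 had an unadjusted p under 0.05. In the imprinted list 4 of 68 events were called (5.88%), all of them in Meg3. The median |ΔPSI| of the lists lay between 0.00492 (glia and myelin) and 0.0117 (splicing regulators), against 0.0116 over all events.

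The share of events called depended on the inclusion level far more than on the exon's length. By the PSI from all reads, 13.3% of the events between 0.1 and 0.5 were called (143 of 1074) and 11.2% of those between 0.5 and 0.9 (232 of 2063). It was 3.52% up to 0.1 (47 of 1337) and 0.394% above 0.9 (81 of 20568). The classes by the mean PSI of both alleles gave the same order, from 0.266% above 0.9 to 16.9% between 0.3 and 0.5, although this mean comes from the reads that were tested. Near 0 or 1 a difference of 0.1 is hard to reach, so these shares describe the calls and not the rate of sequence change. Among events with a mean PSI up to 0.1, 29 of 33 called events were higher on C57BL/6J, while between 0.7 and 0.9 it was 82 of 168.

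Events with a length divisible by 3, whose skipping leaves the reading frame of coding exons intact, were called in 2.22% (238 of 10706) and the others in 1.85% (265 of 14336). The order turned among events with a mean PSI of 0.1 to 0.9, where 10.4% of the exons divisible by 3 were called (193 of 1851) and 14.8% of the others (223 of 1510). The thinnest allele and library had a median of 90 and 63 reads in these classes, and the part of depth in the difference was not tested. By depth alone, the share called fell from 2.74% with 20 to 49 reads to 0.811% with 500 or more, while the median |ΔPSI| over all events fell from 0.0370 to 0.00221. Events in lncRNA genes were called in 27 of 171 cases (15.8%), against 1.90% of 24755 events in protein-coding genes.

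**Figure D3:**
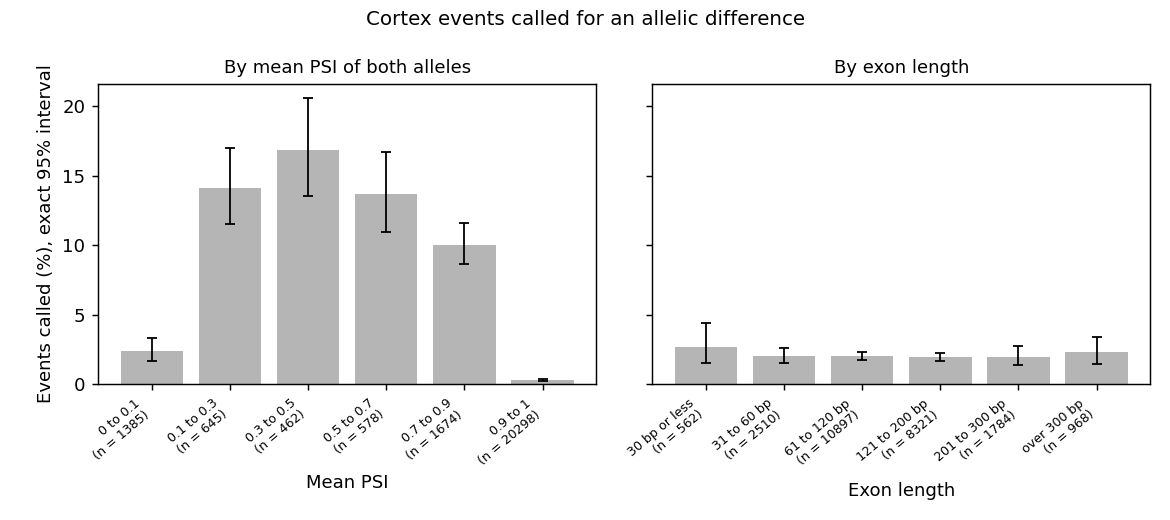
Share of cortex events called for an allelic difference (%) by the mean PSI of both alleles (left) and by exon length (right), with exact 95% binomial intervals for counting error and the number of events under each bar. The share is 10.0% to 16.9% between a PSI of 0.1 and 0.9 and 0.266% above 0.9, whereas it stays between 1.93% and 2.67% over all lengths.

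The differences called in cortex mostly had the same direction in the other tissues. Those libraries were not used to choose the events, but the organs came from the same 2 animals, so agreement between organs is agreement within these animals. These are bulk tissues, in which fewer cells of a type and less RNA per cell cannot be told apart. Of the 503 events, 430 had enough reads in at least 1 other tissue and 73 in none. The direction was the same in 352 of 367 events in lung (95.9%), 309 of 325 in ESC (95.1%), 318 of 335 in heart (94.9%), 312 of 329 in spleen (94.8%), 237 of 250 in liver (94.8%) and 348 of 369 in kidney (94.3%). In the tissue's own test the same direction was called for 140 events in heart (41.8%, against 2.09% of all heart events), 157 in lung (42.8%, against 1.91%), 158 in kidney (42.8%, against 1.89%) and 128 in spleen (38.9%, against 1.99%). In liver it was 70 (28.0%, against 1.29%) and in ESC 16 (4.92%, against 0.0764%). When the library was fitted as a block, liver had 106 such calls and ESC 142. In liver 1 event was called in the opposite direction. Of the 206 events tested in all 6 other tissues, 180 had the same direction in each of them and 13 were called in each.

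The 24 exons with the largest differences could be followed in 17 cases. Together they gave 83 values in other tissues, all with the direction seen in cortex and a |ΔPSI| of at least 0.231, and 74 of them were called. Mtif2, Pkp4, Mrps17, Cdc26 and Tor1aip1 were called in all 6 other tissues. The difference in Tor1aip1 varied little, from −0.989 in lung to −0.952 in ESC. In Mcfd2 the range was wider, from −0.763 in lung to −0.231 in liver, against −0.934 in cortex. Nrcam had enough reads in lung as the only other tissue, where ΔPSI was 0.914. The 7 exons without enough reads elsewhere were those of Meg3, 9430021M05Rik, Carf, Fbxo41, Ccdc74a, Cox19 and Fam227a.

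**Figure D4:**
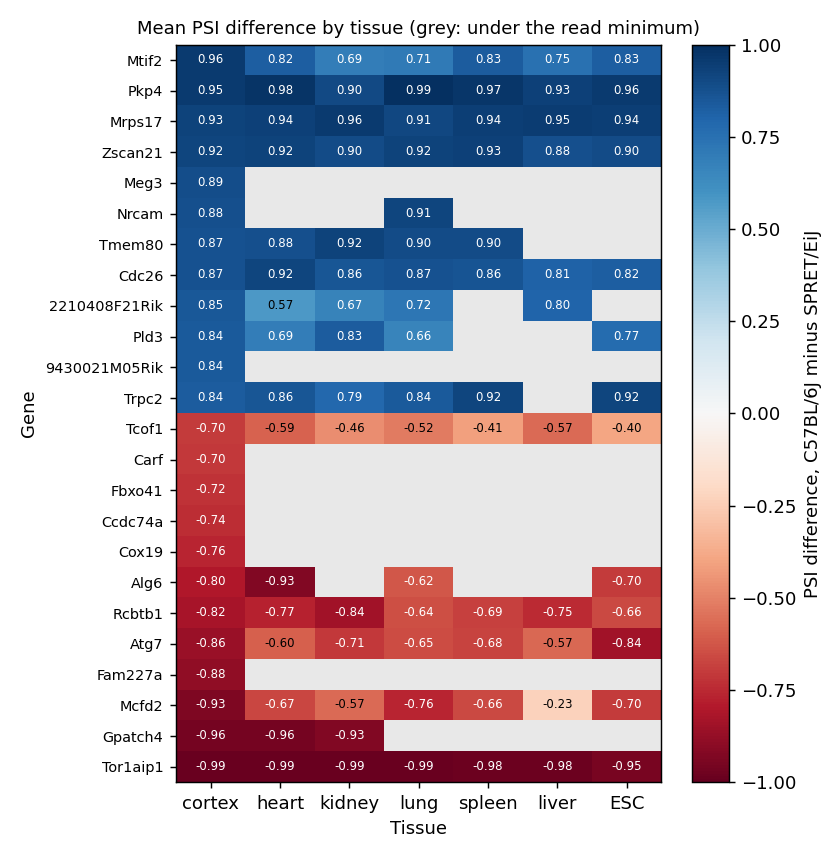
Mean PSI difference (C57BL/6J minus SPRET/EiJ, colour scale from −1 to 1) of the 24 exons with the largest differences in cortex, by tissue, with grey where an allele had too few reads. All 83 values outside cortex have the sign of the cortex value, from −0.989 to 0.994.

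A test of the difference between tissues found few exons whose allelic effect in cortex departed from that in heart or kidney. The test compares the alleles by the log odds of inclusion reads, and a call also needed a difference of ΔPSI of at least 0.1. Where PSI is near 0 or 1 in 1 tissue, unlike ΔPSI can go with similar log odds, so an exon without a call can still differ in ΔPSI. The other tissues were not tested in this way. Of 9926 shared events 11 differed from heart (0.111%), with an unadjusted p under 0.05 for 446, and of 12160 shared events 3 differed from kidney (0.0247%), with 543. With the library as a block the counts were 23 and 16. Only 1 and 3 events differed from heart when the first or the second cortex library was left out, and 0 and 1 from kidney, so these calls rest on both cortex libraries. Without the first kidney library 1 event differed from kidney.

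Ndufv3 encodes a subunit of mitochondrial complex I, and its 1092-bp exon gives a longer isoform. In cortex the PSI was 0.0702 and 0.0599 on C57BL/6J and 0.224 and 0.210 on SPRET/EiJ, while in heart it was 0.0109 and 0.0139 against 0.00528 and 0.00520. The ΔPSI was −0.152 in cortex, 0.00717 in heart and −0.0284 in kidney (limma-moderated interaction adjusted p = 4.41e-05 against heart and 0.000982 against kidney). This exon was the only one that differed from both tissues, and it was the one left in heart without the first cortex library. Mff had the opposite contrast. For its 75-bp exon the PSI in cortex was 0.0581 and 0.0291 against 0.224 and 0.234, and in heart 0.0915 and 0.0668 against 0.996 and 0.983 (ΔPSI −0.186 and −0.910, interaction adjusted p = 0.000196 by the limma-moderated test). The next exon of Mff (159 bp) had a ΔPSI of −0.128 in cortex and 0.365 in heart (adjusted p = 0.000277).

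For 6 of the exons reported here, in 5 genes, a difference in heart met a |ΔPSI| of at most 0.0391 in cortex. They were the 39-bp exon of Tmem63b (0.0391 in cortex and 0.420 in heart), the 81-bp exon of Fez2 (−0.0147 and 0.384), the 36-bp exon of Clta, a clathrin light chain gene (0.0253 and 0.271), the 33-bp and 60-bp exons of Camk2d, a calcium-dependent kinase gene (−0.00927 and 0.461, and 0.00682 and 0.271), and the 15-bp exon of Sptan1, the alpha spectrin gene (−0.00538 and 0.301). The PSI of the Sptan1 exon was 0.934 to 0.941 on both alleles in cortex, against 0.567 and 0.610 on C57BL/6J and 0.306 and 0.269 on SPRET/EiJ in heart. A 92-bp exon of Ank2 was largely skipped in cortex and kept in heart, with a ΔPSI of −0.134 and 0.0525 (limma-moderated interaction adjusted p = 0.0308). Against kidney, the 99-bp exon of Ap1ar gave −0.0206 and 0.235 and the 105-bp exon of Lsm6 −0.451 and 0.241. For Lsm6 the cortex libraries were apart on C57BL/6J (0.426 and 0.671), and the same exon with a nearer upstream splice partner gave a ΔPSI of 0.05 in cortex.

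Allelic balance was measured as the C57BL/6J share of a gene's summed junction reads. Of 9918 autosomal genes in the cortex table, 8651 had enough reads, and a call needed a ratio of 1.5 between the alleles and an adjusted p under 0.05. The alleles were near parity for most genes: the median share was 50.4%, with quartiles of 46.8% and 54.0%, and 83.6% of genes lay between 40% and 60%. An imbalance was called for 1236 genes (14.3%), all in the same direction in both libraries, which the call from these same libraries favours. C57BL/6J was higher in 692 (8% of genes) and SPRET/EiJ in 544 (6.29%). The median difference of the share between the libraries was 2.35 percentage points. In 43 called genes C57BL/6J had at least 90% of the reads and in 47 at most 10%.

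Imprinted genes were at both ends. Imprinting silences the copy from 1 parent, so in these mice a maternally expressed gene is read from C57BL/6J and a paternally expressed gene from SPRET/EiJ. Of the 28 listed imprinted genes tested, 19 were called (67.9%, against 14.3% of all genes), 9 toward C57BL/6J and 10 toward SPRET/EiJ. The list was drawn from genes known as imprinted in some mouse tissue. The maternally expressed lncRNA genes of one cluster had nearly all reads on C57BL/6J, with 99.7% in both libraries for Rian and 99.9% and 99.5% for Mirg. Meg3 had 97180 and 89890 reads on C57BL/6J against 977 and 961 on SPRET/EiJ. At the other end were paternally expressed genes, with 0.0664% and 0.0576% for Snrpn (72 and 62 reads against 108336 and 107648), 0.374% and 0.354% for the zinc finger gene Peg3, and 0.208% and 2.43% for Sgce, which encodes epsilon-sarcoglycan. The share of Sgce rests on 5 and 55 C57BL/6J reads and was thus less even between libraries.

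Several imprinted genes were biased without being silent on either allele. H13, a signal peptidase gene, had 90.3% and 89.3% on C57BL/6J, Commd1 81.0% and 80.0%, Copg2 77.1% and 72.4%, Trappc9 70.1% and 72.6% and Herc3 68.8% and 68.2%. Toward SPRET/EiJ, Rasgrf1, an exchange factor for Ras, had 7.53% and 7.01%, Nnat 11.3% and 14.9%, Impact 23.0% and 12.9% and Begain 35.7% and 36.3%. Each of these differences had a limma-moderated adjusted p of at most 8.88e-05. Copg2 and Trappc9 were not called in the same direction in any other tissue, where their shares were 50.7% to 57.6% and 51.7% to 60.02%.

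Grb10, which encodes an adaptor that restrains insulin and growth factor signalling, had opposite biases in cortex and in 4 other organs. Its C57BL/6J share was 3.92% and 4.60% in the cortex libraries, with 19 and 23 reads against 466 and 477, and 99.4% to 99.8% in heart, kidney, lung and spleen, and 33.7% in ESC. For Igf2r, the receptor that clears insulin-like growth factor 2, the share was 54.4% and 58.1% in cortex (limma-moderated adjusted p = 0.319) and 98.2%, 94.0% and 97.8% in heart, kidney and lung, but 45.5% in ESC. Cortex reads for Igf2r were few, with 68 in both libraries on C57BL/6J and 57 and 49 on SPRET/EiJ. These differences between tissues were not tested. The 8 other listed genes without a call were Zfp64, Adam23, Cobl, Ppp1r9a, Ddc, Inpp5f, Atp10a and Gnas. For Gnas, which encodes the stimulatory G protein alpha subunit and several imprinted transcripts, the gene's share of 39.95% and 42.3% covered events between 4.97% and 87.8%, so the sum hides opposite biases within the locus.

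**Figure D5:**
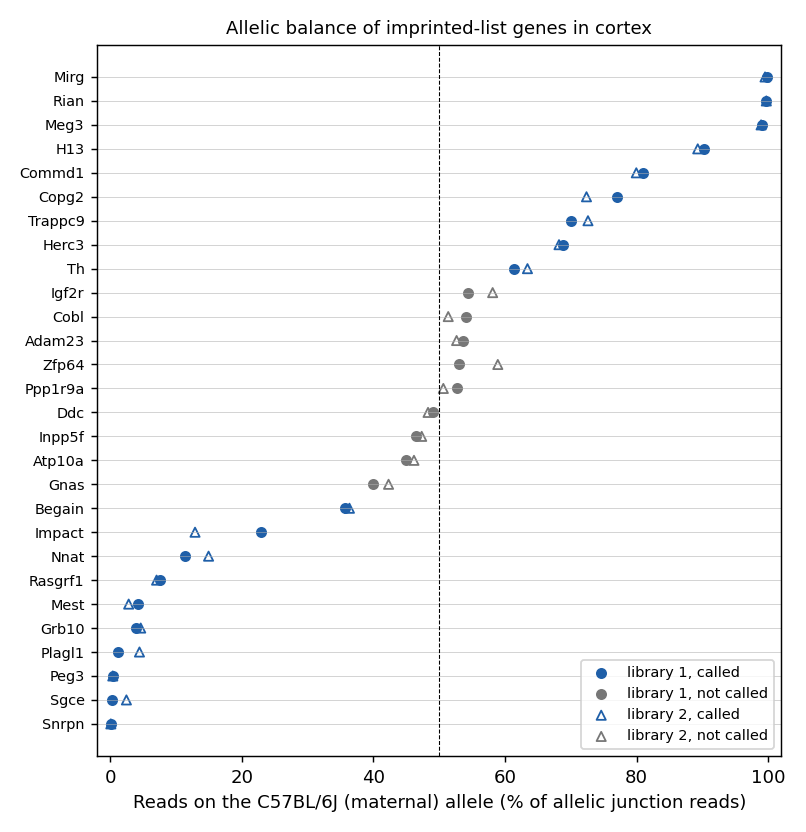
Share of allelic junction reads on the C57BL/6J (maternal) allele (%) for the 28 imprinted-list genes in both cortex libraries (circles library 1, triangles library 2), in blue where an imbalance was called and in grey where it was not. Mirg, Rian and Meg3 lie at 98.9% or more and Peg3, Sgce and Snrpn at 2.43% or less, with 9 uncalled genes near the middle, from 39.95% to 58.9%.

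Outside the imprinted list, the strongest biases toward C57BL/6J were those of Spp1, which encodes the secreted protein osteopontin (129 and 112 reads against 1 and 0), 4930447C04Rik (99.2% and 98.9%), Gm26782, Krt12, Gm13601, Clasrp, Rec8, Dkkl1 and Ppp3cb, a calcineurin subunit gene (98.4% and 98.1%). Spp1 was at 99.5% to 99.8% in the 4 other tissues with enough reads. Clasrp, which encodes a partner of a splicing factor kinase, had 97.5% and 100% in cortex, with 153 and 143 reads against 4 and 0 in 1 event, but 47.5% to 55.2% in heart, lung, spleen and ESC. This difference between tissues was not tested.

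Toward SPRET/EiJ the strongest were Ppia, which encodes cyclophilin A (1.00% and 0.990% on C57BL/6J, or 455 and 412 reads against 44889 and 41216), Rpl28, a ribosomal protein gene (1.28% and 1.47%), Kansl2, Ube2h (1.96% and 1.94%), Oas1b, A330076H08Rik, Etohi1, Btg3 and Kpna2 (2.30% and 3.42%). Ppia and Rpl28 have many near-identical processed copies in the mouse genome, so their counts are uncertain. The bias of Ppia was the same in each of the 6 other tissues (0.707% to 1.22%), and that of Rpl28 was 0.388% to 0.744%. Oas1b, an interferon-induced gene that is annotated as a transcribed pseudogene in the reference used here, had 2.40% and 2.30% in cortex and 12.5% to 29.4% elsewhere.

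In the neuronal lists the balance of the alleles was called for 3 genes. None of 37 presynaptic genes and none of 44 ion channel genes was called by the limma-moderated test, with an unadjusted p under 0.05 for 11 in each list. Their shares on C57BL/6J lay between 46.9% and 58.9% and between 41.7% and 59.7%. Of 49 postsynaptic genes 3 were called (6.12%, against 14.3% of all genes). Gabra2, a GABA-A receptor subunit gene, had 24.8% and 25.4% of its reads on C57BL/6J, with 22.0% to 29.7% in its 4 events (limma-moderated adjusted p = 5.06e-09). The NMDA receptor subunit genes Grin2b and Grin2a went in opposite directions, with 69.2% and 66.5% for Grin2b and 41.2% and 34.5% for Grin2a. In the other lists 3 of 49 cytoskeletal genes (Tpm3, Map7, Tpm1), 3 of 43 trafficking genes (Vti1b, Amph, Tbc1d24), 2 of 22 glial genes (Plekhb1, Opalin) and 4 of 65 splicing regulators were called, which is 6.12% to 9.09% of each list against 14.3% of all genes. With only the event that had the most reads, the calls of Vti1b, Amph, Tbc1d24 and Grin2a were lost (log2 ratio 0.55, 0.07, 0.44 and −0.34), and with median-of-ratios scaling that of Tpm1 (0.58). Among the regulators, Hnrnpc (80.4% and 80.0%), Srsf2 (67.7% and 68.2%) and U2af1 (67.3% and 66.96%), the small subunit of the factor that binds the 3′ splice site, were higher on C57BL/6J. The other one, Khdrbs2, an RNA-binding protein gene, was higher on SPRET/EiJ, with 36.9% and 40.2% of its reads on C57BL/6J. The share of Hnrnpc rests on 1 event, whose PSI from all reads was 0.522 above that of the pooled allelic reads. In other tissues it was 89.9% in heart, 86.0% in kidney and 90.2% in lung, but 53.6% in spleen, 39.8% in liver and 41.7% in ESC.

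The cortex imbalances had the same direction in heart for 85.01% of the 787 genes tested, in lung for 84.3% of 915, in kidney for 82.2% of 912, in spleen for 81.6% of 843, in liver for 79.4% of 635 and in ESC for 75.5% of 853. They were called there in the same direction in 49.05% (against 20.7% of all heart genes), 48.1% (21.6% of kidney genes), 45.1% (19.8% of lung genes), 31.8% (10.9% of spleen genes), 37.8% (17.6% of liver genes) and 6.33% (1.82% of ESC genes).

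Exon inclusion and allelic balance moved together in part of the genes. Of the 401 genes with a called event, 117 (29.2%) were also called for imbalance, against 855 of 7680 genes without one (11.1%). In 87 of the 117 the allele with the higher inclusion also had more reads. Both measures come from the same junction reads, and an included exon gives reads over 2 junctions where skipping gives reads over 1, so the measures are not independent and the part of this overlap was not tested. Hnrnpc and Amph show how they can differ. Hnrnpc had higher inclusion on SPRET/EiJ but more reads on C57BL/6J. Both of its values come from 1 event, in which the allelic reads and all reads gave different inclusion levels (by 0.522), so they are uncertain. Amph had shares of 51.4% to 77.0% among its events and no event called for inclusion.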

How the data were processed

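RNA-seq libraries of cerebral cortex from 2 F1 animals were used, with 5 other organs of these animals and ESC for comparison. Alignment by the authors used HISAT2 2.0.1, to mm10 and to a SPRET/EiJ genome made by inserting variants, and assigned each read to the genome with fewer edits. The authors trimmed the longer reads so that all samples had the same read length. With rMATS and the Ensembl GRCm38 annotation the authors counted the inclusion and skipping junction reads of each event, deposited as unnormalized whole numbers with both replicates in 1 cell, C57BL/6J as sample 1 and SPRET/EiJ as sample 2. The effective lengths of the forms (75 for skipping, 77 to 150 for inclusion) are deposited as a score by rMATS. Expression was deposited in TPM, made by the authors with featureCounts from all reads. The authors' own p-values, FDR and inclusion differences stand in the tables and were not used, and 0 value columns without a sample were used. The liver labels name the strains C57BL/7J and C57BL/8J, and liver was taken as the study describes it.

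PSI was recomputed from reads and lengths, for autosomal events with at least 20 reads per allele and library. Inclusion and skipping reads were fitted with a quasi-binomial logit model, without a library term as in the study. Dispersions of at least 1 were moderated with limma 3.58.1 (R 4.3.3) toward a prior that follows depth (spline with 4 degrees of freedom), and F tests were adjusted over all events of a tissue by Benjamini-Hochberg. An allelic difference needed an adjusted p under 0.05 and a |ΔPSI| of 0.1. The difference between tissues was the interaction term of the same model, on its logit scale, with a difference of ΔPSI of at least 0.1. The prior departs from the plan. All events were to set it, which gave 662 calls. Only events with a fitted variance of at least 3 in every column were then used (503 calls), and limits of 1, 5 and 10 (606, 463 and 449 calls) had also been tried on these data. Afterwards the forms were compared on simulated data under a rule set beforehand: the planned form gave too many false calls where dispersion varied between events, the limit of 3 did not, and it was kept. The fit with a library block also gave more false calls there than the fit without. The simulated libraries had no library effect, so this cannot say which fit suits alleles paired within an animal.

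Both alleles of a library come from the same animal, so libraries pair the alleles. Their replicate deviations correlated with r = 0.120 over 3359 events with a mean PSI between 0.1 and 0.9, and the blocked fit is an alternative. Gene balance used junction reads summed over a gene's events (a read can count in several events), at least 40 reads, trimmed-mean scaling and a quasi-Poisson model with limma moderation, a pseudocount of 0.5 in log2 ratios and a ratio of 1.5. It replaces the count test that was planned, because lists of 2 values per cell could not be declared as counts, and the second count tool planned was not run. Intervals are exact 95% binomial, and limits for a form without reads use 3 counts. Both cover counting error only, since reads carry no molecular identifiers.

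Named exons are the 12 largest called differences in each direction, the 8 largest among exons of at most 30 bp and up to 4 per gene list, 1 per gene, with the same sign and at least 0.1 in both libraries. Named genes are the 12 largest called ratios in each direction, all imprinted genes tested and up to 3 per other list. Examples beyond these (other exons of Mapt and Lsm6, the balance of Khdrbs2, and exons with a difference between tissues) were chosen after their values were seen. The values of 1 gene counted in these sets are not reported here. The members, lists and thresholds were chosen with earlier results of these data known. With 2 animals, the replicate spread is a rough estimate. Gene types were matched by symbol for 99.6% of events in a RefSeq table. Python 3.11.15, numpy 2.4.6, scipy 1.17.1 and pandas 2.3.3 were used.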

Additional observations from a re-analysis of the deposited data

Results flagged for a closer look

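In 11 events the allelic difference in cortex departed from that in heart, and in 3 from that in kidney, by the limma-moderated interaction test (adjusted p under 0.05 and a difference of ΔPSI of at least 0.1). The values below are ΔPSI in cortex minus ΔPSI in the other tissue.

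Against heart, the difference was −0.159 for the 1092-bp exon of Ndufv3, 0.725 for the 75-bp and −0.492 for the 159-bp exon of Mff, −0.381 for the 39-bp exon of Tmem63b, −0.399 for the 81-bp exon of Fez2 and −0.246 for the 36-bp exon of Clta. It was −0.470 and −0.265 for the 33-bp and 60-bp exons of Camk2d, −0.306 for the 15-bp exon of Sptan1 and −0.187 for the 92-bp exon of Ank2. In 2 of the 11 events, in Ndufv3 and Ank2, the allelic difference was the larger in cortex. Mff and Camk2d each hold 2 of the events.

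Against kidney it was −0.123 for the exon of Ndufv3, −0.256 for the 99-bp exon of Ap1ar and −0.693 for the 105-bp exon of Lsm6, whose adjusted p of 0.0499 in the limma-moderated test lay just inside the threshold. The Lsm6 value rests on as few as 48 reads in cortex and 44 in kidney per allele and library.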

How the results depend on the processing

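The number of cortex calls depended most on the replicates. Leaving out 1 column gave 107 to 646 calls, with the lone column assumed to vary like the others (149 and 107 without C57BL/6J replicate 1 or 2), and a C57BL/6J share of 59.7% to 65.4%. Testing only the 5569 events away from a PSI of 0 or 1 gave 889 calls, since fewer events are adjusted over. The count stayed between 350 and 671 with read minimums of 10 and 50, no depth trend, a |ΔPSI| of 0.2, 1 event per exon, other priors or the replicate block (671).

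The cortex against heart count was 23 with the replicate block, 32 with all events in the prior, 18 with a variance limit of 1 and 1 to 12 without 1 library. Against kidney it was 16, 19, 6 and 0 to 2. Cortex calls also called in liver rose to 106 and in ESC to 142 with the block, and in ESC to 113 with all events in the prior. The block changed no other call count by more than 1.5 times. The cause of these changes was not tested.

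No named exon reversed under any of 235 alternative values, and 7 moved. All 7 moved when inclusion reads were divided by 2 (Limk2 to 0.258, Ddhd1 to −0.569, for example). Many of these values could not have changed. Exons were chosen for the same sign in both libraries, so values from 1 library could not reverse. The limit for a move was the SD of the 2 libraries, which 1 library cannot pass. The replicate block keeps ΔPSI and could only lose the call. Of 360 alternative values for 60 genes none reversed and 5 lost the call. These were the event with the most reads alone for Vti1b, Amph, Tbc1d24 and Grin2a (log2 ratio 0.55, 0.07, 0.44 and −0.34) and median-of-ratios scaling for Tpm1 (0.58). For Gnas that event alone gave a call (−4.20). Gene values from 1 library could not reverse either, since every called gene had the same direction in both libraries. They were not scored for a call, and genes without a call were not scored for reversal. Imbalanced genes numbered 836 (at least 200 reads) to 1351. Depth limits events under about 50 reads per allele, where the median |ΔPSI| between alleles was 0.0370.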

Other observations

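The X chromosome was left out of the events above. In these female mice 909 X-linked events gave a C57BL/6J share of the allelic junction reads of 53.5% in cortex library 1 and 39.7% in library 2, while the autosomal shares were 50.6% and 50.5%. Over 249 X-linked genes with at least 40 reads the median share was 54.9% and 40.1%, and 58 genes were under 50% in both libraries. The gap between replicates was wider in lung, with 49.7% and 25.7%, and narrower than in cortex in heart (39.4% and 38.0%), spleen (42.4% and 39.4%), kidney (52.9% and 47.8%) and liver (45.1% and 38.2%). The 2 ESC clones gave 46.2% and 48.4%. With 2 libraries per tissue no test was made.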
